A study of Mus musculus with 24 samples.

Results

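Telomerase is the enzyme that lengthens chromosome ends, and the CST complex is the single-strand DNA binding complex that lets the second strand be filled in afterwards. The 10 genes described here encode the catalytic subunit of telomerase (Tert), the 4 proteins of the particle that holds its RNA (Dkc1, Nop10, Nhp2 and Gar1), a factor that brings that particle to Cajal bodies (Wrap53), a protein found with telomerase and with vault particles (Tep1), a helicase that unwinds telomeric loops (Rtel1), and the CST subunits Ctc1 and Ten1. Every non-control probe whose accession belongs to one of these genes was taken, which gave 10 probes, 1 for each gene, among 55681 non-control probes and 21368 named genes on the array.

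TERT copies a template carried by the telomerase RNA, TERC. That RNA ends in an H/ACA domain bound by dyskerin (DKC1), NOP10, NHP2 and GAR1, the same proteins that form the small nucleolar particles guiding pseudouridylation of ribosomal RNA, so these proteins are made in every cell whether or not it makes TERT. CST, built of CTC1, STN1 and TEN1, stops telomerase at the extended strand and recruits DNA polymerase alpha-primase to copy the other one.

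RNA came from liver, brain, heart and muscle of 6 male mice, 3 wild-type (WT) and 3 homozygous for a Rap1 I312R knock-in (KI/KI), and each of the 24 samples was hybridized to its own 1-colour Agilent mouse array. The knock-in allele, made with CRISPR/Cas9 and back-crossed to C57BL6 (C57BL/6N in the study's methods), replaces a residue of RAP1, a shelterin protein encoded by Terf2ip, through which RAP1 binds TRF2. All tissues of KI/KI mice carry the allele from the germ line, and the sources used here name no number of founders. In each genotype 1 mouse (WT1, KI1) was 5 months old and the other 2 (WT2, WT3, KI2, KI3) were 2 months old. The study asked what RAP1 does away from telomeres, and here the question was how the telomerase and CST genes stood in each tissue and whether they differed between genotypes.

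Levels are given as the log2 processed signal minus the log2 75th percentile of the same array, so 0 is the brightness of a probe at that percentile and positive values are brighter. Probes bind with different strength, so each gene was compared only with itself across samples. The 75th percentile lay between 561 and 1679 intensity units, and 57.6% to 73.5% of probes were well above background. All 10 probes were well above background and none was saturated on any of the 24 arrays. In whole tissue, fewer cells of a type and less RNA per cell cannot be told apart. The tissues matched their labels, since the summed level of 8 hepatocyte markers was 1744 to 3256 in liver and at most 95.9 elsewhere, and the sets for neurons and glia, cardiomyocytes and skeletal fibres were likewise highest in their own tissue. A few arrays held more RNA of other cell types, and these are given beside the results they touch. Brain and liver RNA was extracted with a different kit from heart and muscle RNA, which cannot be told apart from the tissue. The slides were partly shared, with all livers and 2 brains on slide 1, 4 brains and 4 hearts on slide 2, and 2 hearts and all muscles on slide 3. For the 10 genes, differences with slide as a block are given where they end or add a call, or move a called difference by over 1.5 times. Some differences that were not called moved by more than that.

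**Figure D1:**
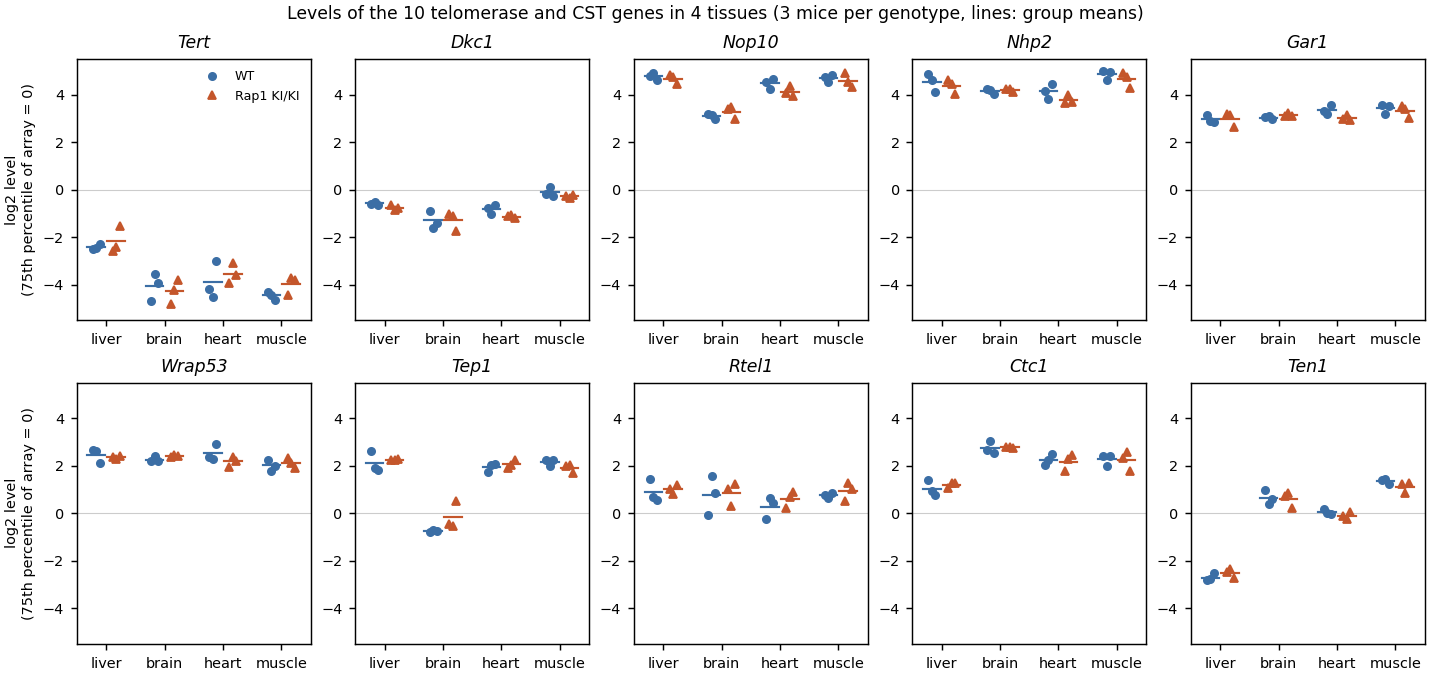
Level of the 10 genes in each sample, 1 panel a gene. The vertical axis is the log2 signal relative to the array's 75th percentile and the horizontal axis the tissue, with circles for WT, triangles for KI/KI and lines for the mean of each group of 3 mice. Ten1 and Ctc1 stand lowest in liver, Tep1 and Nop10 lowest in brain, and Tert highest in liver, while the 2 genotypes lie close together in each tissue.

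Ten1 and Ctc1, the CST subunits among the genes, had their lowest levels in liver. Ten1, the small subunit that stabilizes the complex on DNA, ranged in liver from -2.83 through a median of -2.61 to -2.36, in heart from -0.22 through -0.01 to 0.17, in brain from 0.22 through 0.67 to 0.99, and in muscle from 0.85 through 1.26 to 1.44. No liver sample overlapped any sample of the other tissues. The tissue means were 1.24 ± 0.21 in muscle, 0.63 ± 0.29 in brain, -0.02 ± 0.13 in heart and -2.61 ± 0.19 in liver (SD, n = 6 mice each), and every neighbouring pair in that order differed. Ten1 was 14.4-fold lower in liver than in muscle (log2 difference -3.85, SE 0.14, limma adjusted p = 6.39e-15), 9.45-fold lower than in brain (-3.24, SE 0.14, adjusted p = 7.55e-14) and 6.01-fold lower than in heart (-2.59, SE 0.14, adjusted p = 3.75e-12), each in 6 of 6 mice. The smaller steps were 0.65 for brain over heart (adjusted p = 0.000439), -0.61 for brain against muscle (adjusted p = 0.000835) and -1.26 for heart against muscle (adjusted p = 5.53e-07).

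Ctc1, the large scaffold subunit of CST, ran from 0.77 through a median of 1.16 to 1.38 in liver and from 1.79 through 2.27 to 2.48 in heart. It ran from 1.76 through 2.36 to 2.59 in muscle, and from 2.54 through 2.79 to 3.03 in brain. Here too the liver samples lay below every other sample. Ctc1 was 3.15-fold lower in liver than in brain (-1.65, SE 0.17, adjusted p = 2.62e-08), 2.14-fold lower than in heart (-1.10, SE 0.17, adjusted p = 1e-05) and 2.19-fold lower than in muscle (-1.13, SE 0.17, adjusted p = 6.49e-06), in 6 of 6 mice. With slide as a block the difference between liver and muscle was -0.70 and no longer passed (adjusted p = 0.161), whereas liver and brain of the same slide differed by -1.62. Brain exceeded heart by 0.56 (adjusted p = 0.00651) and muscle by 0.52 (adjusted p = 0.00937), the first not without KI1 (0.46, adjusted p = 0.0507) and the second not without WT2 (0.38, adjusted p = 0.0949), and with slide as a block the second was 0.92 (adjusted p = 0.0181). Quantile normalization also gave wider steps, of 0.88 and 0.92. Heart and muscle did not differ beyond the spread.

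Stn1, the remaining CST subunit, belongs to the accompanying list of CST and its polymerase partner rather than to the 10 genes. Its brighter probe averaged 2.27 ± 0.26 in heart, 1.42 ± 0.09 in brain, 1.25 ± 0.28 in muscle and -0.27 ± 0.29 in liver (SD, n = 6). That probe was lower in liver than in brain (-1.69, adjusted p = 6.53e-09), heart (-2.54, adjusted p = 2.23e-11) and muscle (-1.52, adjusted p = 4.51e-08). A second, dim Stn1 probe, well above background on 19 arrays, averaged -4.31 in liver, -4.97 in brain, -4.63 in heart and -6.13 in muscle, and so did not repeat that order. Against brain, the catalytic and accessory subunits of the polymerase moved otherwise. Pola2 was higher in liver than in brain (2.32) and Pola1 likewise (1.36), while Prim1, the primase catalytic subunit, differed by -0.03 there. Of the 5 genes of that list, 2 were higher and 1 lower in liver against brain, 3 higher and 1 lower against heart, and 3 higher and 2 lower against muscle. Over all probes 44.9% were higher and 33.9% lower in the first comparison, 34.6% and 32.1% in the second, and 35% and 36.1% in the last.

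The promoters of the CST genes are shown because the 3 subunits, Stn1 by its brighter probe, had their lowest level in the same tissue. They come from RefSeq on GRCm38.p6, run from 250 bases before to 50 after the annotated start, and were found for 9 of the 10 genes and for Stn1. Capitals mark matches on either strand to 5 short motifs. The E-box was searched as CACGTG and the core of a GC box as GGGCGG. The core bound by ETS factors was searched as TTCCGG. The box bound by NF-Y was searched as CCAAT and the box near many tissue-restricted starts as TATAAA.
Ctc1, chr11:69015661-69015960, plus strand: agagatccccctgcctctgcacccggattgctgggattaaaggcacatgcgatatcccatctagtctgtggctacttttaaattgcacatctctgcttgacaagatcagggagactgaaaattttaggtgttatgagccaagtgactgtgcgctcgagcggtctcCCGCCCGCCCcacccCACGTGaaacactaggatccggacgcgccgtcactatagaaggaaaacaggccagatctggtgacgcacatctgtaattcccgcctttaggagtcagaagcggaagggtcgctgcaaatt
Ten1, chr11:116198605-116198904, plus strand: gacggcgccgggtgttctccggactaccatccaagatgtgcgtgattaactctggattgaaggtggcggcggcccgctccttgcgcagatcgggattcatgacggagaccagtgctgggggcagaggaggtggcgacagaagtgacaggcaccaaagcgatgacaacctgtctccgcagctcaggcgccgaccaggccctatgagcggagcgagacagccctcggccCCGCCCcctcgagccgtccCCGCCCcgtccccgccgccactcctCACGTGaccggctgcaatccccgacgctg
Stn1, chr19:47537070-47537369, minus strand: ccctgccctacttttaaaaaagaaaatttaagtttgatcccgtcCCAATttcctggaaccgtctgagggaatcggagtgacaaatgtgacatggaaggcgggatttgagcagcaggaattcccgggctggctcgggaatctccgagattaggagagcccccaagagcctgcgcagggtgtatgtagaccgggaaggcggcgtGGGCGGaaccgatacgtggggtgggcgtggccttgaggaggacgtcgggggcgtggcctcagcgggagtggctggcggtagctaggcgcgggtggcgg

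Ctc1 and Ten1 each held 1 E-box, at -70 and +22 from the start, and 2 GC boxes, which in Ctc1 overlap. Stn1 held 1 GC box and 1 CCAAT and no E-box in this window. Among 32851 promoters of that length, 7.15% hold the E-box, which reads the same on both strands, 35.7% the GC box, 14.9% the ETS core, 37.4% CCAAT and 13.6% TATAAA. The GC content was 52.7% for Ctc1, 67% for Ten1 and 60.3% for Stn1, against a median of 52.7% over all promoters.

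Tep1 had the clearest brain pattern. This large protein binds both telomerase RNA and the vault RNA. In brain it ran from -0.79 through a median of -0.63 to 0.50, and the highest brain sample, KI3, was still below every sample of the other tissues. Liver ran from 1.84 through 2.25 to 2.62, muscle from 1.71 through 2.01 to 2.23 and heart from 1.75 through 2.04 to 2.24. Against brain, Tep1 was 6.25-fold higher in liver (2.64, SE 0.17, adjusted p = 3.3e-11), 5.53-fold higher in heart (brain minus heart -2.47, SE 0.17, adjusted p = 1.97e-10) and 5.59-fold higher in muscle (brain minus muscle -2.48, SE 0.17, adjusted p = 1.72e-10), in 6 of 6 mice. Liver, muscle and heart did not differ beyond their spread.

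The other proteins of the vault, a large hollow ribonucleoprotein particle, were also lowest in brain. Mvp, the shell protein, differed from brain by 3.06 in liver (adjusted p = 4.91e-10), and brain minus heart was -2.51 (adjusted p = 1.55e-08) and brain minus muscle -1.86 (adjusted p = 9.35e-07). Parp4, the vault poly(ADP-ribose) polymerase, differed by 2.00 (adjusted p = 5.93e-10), -2.74 (adjusted p = 1.27e-11) and -2.04 (adjusted p = 7.63e-10) in the same comparisons. Both genes of that list therefore moved the same way as Tep1.

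Tert was highest in liver. Its probe was dim, between 23.7 and 588 intensity units, and at its dimmest, in muscle, only 1.81 times the lowest signal called well above background. Tert ran from -2.57 through a median of -2.44 to -1.51 in liver, from -4.51 through -3.76 to -3.01 in heart, from -4.82 through -4.08 to -3.54 in brain and from -4.62 through -4.36 to -3.72 in muscle, so that no liver sample overlapped another tissue. Liver exceeded brain 3.65-fold (1.87, SE 0.27, adjusted p = 3.89e-06), heart 2.69-fold (1.43, SE 0.27, adjusted p = 0.000129) and muscle 3.8-fold (1.93, SE 0.27, adjusted p = 3.62e-06), in 6 of 6 mice. With slide as a block the differences from heart and muscle were 2.50 and 3.41, still past the test. After background correction by normexp, which draws dim values together, they were 0.93 and 0.80, also past it. Heart, brain and muscle were not separated, although with slide as a block heart exceeded muscle by 0.91 (adjusted p = 0.0408). The summed level of 14 cycling-cell markers was 13.1 to 18.7 in liver, 12.5 to 15.3 in heart, 9.56 to 12.2 in brain and 8.84 to 10.8 in muscle. Pcna, the brightest (log2 level 2.77 to 3.56 in liver), weighs most in that sum. Of the 13 tested, 2 were higher and 3 lower in liver than in heart, beside 34.6% and 32.1% of all probes, with a median difference of -0.12. Against brain 10 were higher and 0 lower, beside 44.9% and 33.9%. Against muscle 10 were higher and 1 lower, beside 35% and 36.1%. The part of these markers in the Tert levels was not tested.

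Terc, the telomerase RNA, was picked out of its list after the values were seen. It was dim, from -6.46 to -3.57, and labelling began from the poly(A) tail, which the mature RNA lacks. Terc averaged -5.96 in brain, below muscle (brain minus muscle -1.84, adjusted p = 4.41e-05), liver (liver minus brain 1.28, adjusted p = 0.00133) and heart (brain minus heart -1.17, adjusted p = 0.00332).

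Nop10, the smallest protein of the H/ACA particle, which holds the pseudouridine synthase to the RNA, was lowest in brain. It ran from 2.98 through a median of 3.15 to 3.48 in brain, from 3.96 through 4.30 to 4.65 in heart, from 4.32 through 4.65 to 4.91 in muscle and from 4.46 through 4.75 to 4.93 in liver, with no overlap between brain and the rest. Liver exceeded brain 2.9-fold (1.54, SE 0.14, adjusted p = 5.43e-09), and brain was below muscle (-1.46, SE 0.14, adjusted p = 1.63e-08) and heart (-1.12, SE 0.14, adjusted p = 7.58e-07), in 6 of 6 mice. After quantile normalization these differences shrank to 0.62, -0.90 and -0.73, all still past the test. The step from heart to liver, 0.42, passed as well (adjusted p = 0.0128) and was seen in 5 of 6 mice. It was lost without KI1 (0.36, adjusted p = 0.0604), without WT2 (0.32, adjusted p = 0.0989) and with slide as a block (0.29, adjusted p = 0.423), and was -0.11 after quantile normalization. Heart and muscle differed by -0.35, with adjusted p = 0.052, or 0.049 with the mouse as a block.

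Nhp2, the RNA-binding protein of the particle, and Gar1, which joins it last and is needed for its activity, varied much less between tissues. Nhp2 averaged 4.75 ± 0.27 in muscle, 4.44 ± 0.33 in liver, 4.18 ± 0.08 in brain and 3.96 ± 0.30 in heart (SD, n = 6). Gar1 averaged 3.37 ± 0.22 in muscle, 3.18 ± 0.24 in heart, 3.09 ± 0.08 in brain and 2.98 ± 0.21 in liver (SD, n = 6). No neighbours in either order differed beyond their spread. Nhp2 was higher in muscle than in heart (heart minus muscle -0.79, adjusted p = 0.000582) and brain (brain minus muscle -0.57, adjusted p = 0.00443), and higher in liver than in heart (0.48, adjusted p = 0.014, 5 of 6 mice). The difference from brain was not called with slide as a block (-0.44, adjusted p = 0.249) and was 0.17 after quantile normalization. Liver over heart was lost without KI1 (0.39, adjusted p = 0.0887), without WT1 (0.39, adjusted p = 0.0752), without WT2 (0.38, adjusted p = 0.0871) and with slide as a block (0.44, adjusted p = 0.281), and was -0.03 after quantile normalization. For Gar1 the single call was liver below muscle (-0.39, adjusted p = 0.012), lost without WT3 (-0.34, adjusted p = 0.0595) and with slide as a block (-0.30, adjusted p = 0.482), while quantile normalization gave -0.66.

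Dkc1 encodes dyskerin, the pseudouridine synthase at the centre of the particle. It ran from -0.35 through a median of -0.23 to 0.13 in muscle, from -0.84 through -0.64 to -0.51 in liver, from -1.20 through -1.04 to -0.64 in heart and from -1.72 through -1.25 to -0.89 in brain. Muscle lay above every sample of the other tissues. It exceeded brain 2.14-fold (brain minus muscle -1.10, SE 0.14, adjusted p = 1.3e-06), heart 1.71-fold (heart minus muscle -0.77, SE 0.14, adjusted p = 0.000218) and liver 1.39-fold (liver minus muscle -0.47, SE 0.14, adjusted p = 0.00669), and with slide as a block the last was -0.90. Liver exceeded brain by 0.62 (adjusted p = 0.000612), but by 0.29 with slide as a block (adjusted p = 0.153). With that block brain was below heart by a log2 difference of -0.47 (adjusted p = 0.014), which was not called without it.

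The promoters of the 3 smaller H/ACA genes are shown because their levels moved together from sample to sample, as described further on, while their tissue orders differed. Capitals mark the same motifs as above.
Nop10, chr2:112261676-112261975, plus strand: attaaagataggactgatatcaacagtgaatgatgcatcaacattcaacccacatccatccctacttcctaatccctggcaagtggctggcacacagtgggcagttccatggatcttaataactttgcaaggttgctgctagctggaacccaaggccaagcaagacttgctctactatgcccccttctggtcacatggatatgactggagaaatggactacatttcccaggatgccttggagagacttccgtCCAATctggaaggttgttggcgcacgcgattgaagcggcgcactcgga
Nhp2, chr11:51619523-51619822, plus strand: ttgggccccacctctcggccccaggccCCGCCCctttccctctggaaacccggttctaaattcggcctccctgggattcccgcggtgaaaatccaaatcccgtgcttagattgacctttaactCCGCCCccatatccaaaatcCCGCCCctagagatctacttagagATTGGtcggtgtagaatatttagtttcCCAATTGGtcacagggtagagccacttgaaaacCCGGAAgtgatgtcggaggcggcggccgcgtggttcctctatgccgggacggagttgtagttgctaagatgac
Gar1, chr3:129831347-129831646, minus strand: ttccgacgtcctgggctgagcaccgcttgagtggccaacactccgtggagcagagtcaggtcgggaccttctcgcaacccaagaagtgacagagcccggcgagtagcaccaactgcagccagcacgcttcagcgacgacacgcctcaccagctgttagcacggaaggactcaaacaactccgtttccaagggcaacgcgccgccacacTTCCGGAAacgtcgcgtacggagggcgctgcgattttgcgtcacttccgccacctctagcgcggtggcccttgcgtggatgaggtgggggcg

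Nop10 held 1 CCAAT, at +3. Nhp2 held 3 GC boxes, 3 CCAAT and 1 ETS core at -23, and Gar1 held 2 overlapping ETS cores, at -42 and -40, read on opposite strands. None of the 5 motifs was in all 3 windows.

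Wrap53 (TCAB1), which binds the Cajal-body box of telomerase RNA, and Rtel1 had nearly flat levels. Wrap53 averaged 2.42 ± 0.21 in liver, 2.35 ± 0.32 in heart, 2.34 ± 0.12 in brain and 2.07 ± 0.20 in muscle (SD, n = 6). Liver over muscle was called (0.35, adjusted p = 0.0369), but it was lost on leaving out 1 mouse, whether KI1 (0.40), KI2 (0.36), KI3 (0.29), WT1 (0.36) or WT2 (0.26), with adjusted p from 0.0517 to 0.172, and with slide as a block (0.75, adjusted p = 0.079). It was 0.06 after quantile normalization (adjusted p = 0.666) and did not pass in the authors' table (adjusted p = 0.206). Rtel1 averaged 0.96 ± 0.33 in liver, 0.85 ± 0.27 in muscle, 0.82 ± 0.61 in brain and 0.44 ± 0.40 in heart. No Rtel1 comparison passed, and its brain samples alone spread from -0.09 to 1.57. Slide as a block gave wider steps for both genes, none of which passed. Rtel1 in liver then exceeded heart by 1.15 (adjusted p = 0.0583), and Wrap53 in brain exceeded muscle by 0.63 (adjusted p = 0.0541).

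Over the 10 genes, 4 were higher and 2 lower in liver than in brain, where 44.9% and 33.9% of the 42463 probes tested were called in those directions. In liver against heart 3 were higher and 2 lower, beside 34.6% and 32.1% of all probes, and in liver against muscle 2 were higher and 4 lower, beside 35% and 36.1%. In brain against heart 2 were higher and 2 lower, beside 28.6% and 38.5%. In brain against muscle 1 was higher and 5 were lower, beside 29.4% and 40.2%, and in heart against muscle none was higher and 3 were lower, beside 20.9% and 22.6%. Calls of this kind were common over the whole array, so the counts are not a result about these genes as a set. The median difference over the 10 genes was 0.20, 0.24, -0.12, -0.05, -0.43 and -0.27 in that order of comparisons, against 0.31, 0.00, -0.06, -0.22, -0.26 and -0.07 over all probes. When background was subtracted by normexp, the share of called probes that were higher in liver than in muscle went from 49.2% to 31.6%, and for brain and heart against muscle from 42.3% to 25.1% and from 48.1% to 26.3%.

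**Figure D2:**
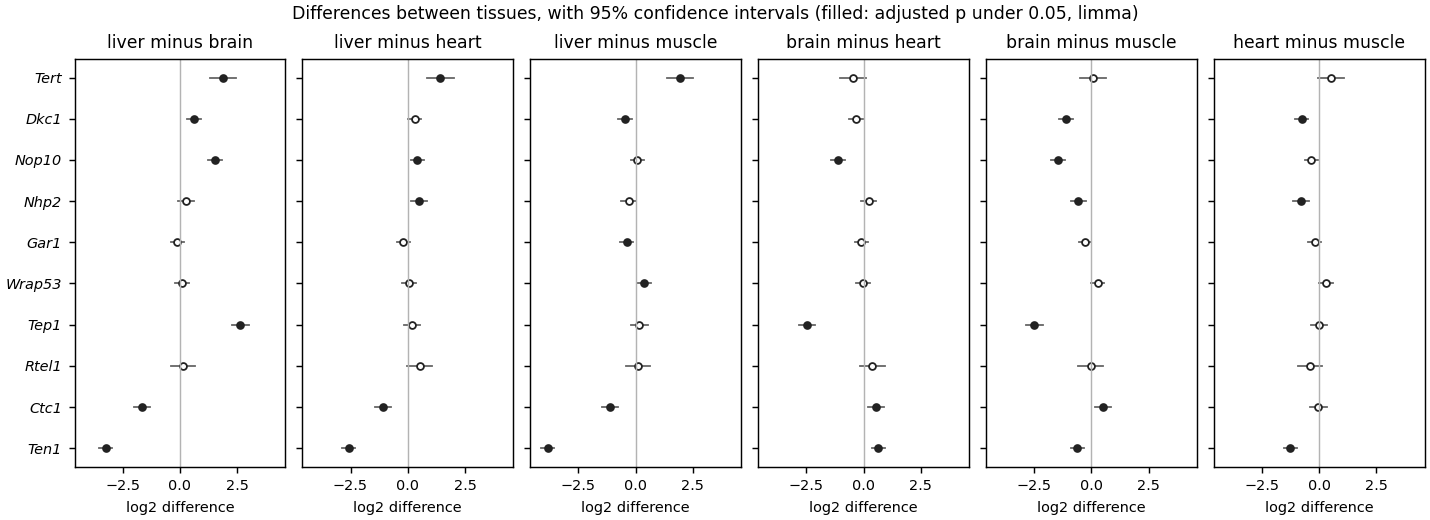
Differences between tissues for the 10 genes, 1 panel for each of the 6 pairs. The horizontal axis is the log2 difference of the first tissue minus the second, averaged over both genotypes, with 95% confidence intervals from the fit of 24 arrays, and filled points mark adjusted p under 0.05. The longest distances from 0 are those of Ten1 in the liver panels and of Tep1 in the brain panels.

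Among the accompanying lists, the 16 factors that assemble or process H/ACA and related RNAs had 10 higher and 2 lower genes in liver against brain, where 44.9% and 33.9% of all probes were called. Shq1, the chaperone of dyskerin, differed by 2.17, Nolc1, a nucleolar and Cajal-body scaffold, by 1.38, Exosc10, a nuclear exosome nuclease, by 1.00, and Coil, the Cajal-body marker coilin, by -1.30. The same list had 7 higher and 3 lower genes in liver against heart, 6 and 3 in liver against muscle, 2 and 7 in brain against heart, 2 and 7 in brain against muscle, and 4 and 4 in heart against muscle, to be read against the shares of all probes given above for each pair. Of the 4 core proteins of box C/D particles, the methylation counterparts of the H/ACA particle, Nop58 (0.98) and Fbl (0.88) were higher and Snu13 (-0.78) and Nop56 (-0.48) lower in liver than in brain. Of 9 helicases and nucleases that act beside RTEL1, 5 were higher and 3 lower in liver than in brain, beside 44.9% and 33.9% of all probes. Dna2 differed by 4.41, Pif1 by -3.17 and Fen1 by -0.98, and Brip1 was at least 8.41-fold higher in liver, a bound set by the lowest signal called well above background, since its probe was above it on 0 of 6 brain arrays. Of 7 shelterin genes, 4 were higher and 1 lower in that comparison.

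No gene of the set passed the test between genotypes in any tissue. None of the 10 had an adjusted p under 0.05, where 0% of the probes tested did in each of the 4 tissues, and none had an unadjusted p under 0.05, where 2.16% of 35240 probes in liver, 2.64% of 37836 in brain, 7.35% of 34848 in heart and 2.48% of 32382 in muscle did. The smallest unadjusted limma p among the 10 was 0.313 in liver, 0.097 in brain, 0.139 in heart and 0.106 in muscle. The median of KI/KI minus WT over the 10 genes was 0.07 in liver, 0.06 in brain, -0.24 in heart and -0.12 in muscle, against -0.04, -0.05, -0.01 and -0.06 over all probes. Terf2ip itself, whose level does not check for a change of 1 residue, differed by 0.09, -0.02, -0.40 and -0.27, none past the test (smallest unadjusted limma p 0.117).

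In heart the H/ACA genes sat below WT together, though none passed. Related lists leaned the same way, so this was not particular to them. The median difference was -0.21 over the 4 box C/D genes and -0.18 over the 16 assembly factors, against -0.01 over all probes. Gar1 was 3.32, 3.17 and 3.57 in the WT mice 1 to 3 and 2.96, 3.13 and 2.92 in the KI/KI mice, a difference of -0.35 (SE 0.21, 95% interval -0.84 to 0.15). Dkc1 was -0.75, -1.0 and -0.64 against -1.11, -1.08 and -1.20, a difference of -0.33 (SE 0.20, interval -0.81 to 0.14). For both genes the groups did not overlap, as was so for 14.2% of probes in heart. Nop10 was 4.55, 4.23 and 4.65 against 4.05, 4.38 and 3.96 (-0.35, SE 0.23), and Nhp2 was 4.16, 3.84 and 4.45 against 3.67, 3.98 and 3.69 (-0.37, SE 0.24). In both, KI2 lay among the WT values, and without WT3 the Nhp2 difference was -0.22. Wrap53 stood at 2.35, 2.27 and 2.94 against 1.97, 2.37 and 2.21 (-0.34, SE 0.26, or -0.13 without WT3), and Rtel1 at -0.22, 0.64 and 0.43 against 0.22, 0.69 and 0.89 (0.32, SE 0.31, or 0.07 without WT1). After quantile normalization the heart differences were -0.13 for Nop10, -0.16 for Nhp2, -0.18 for Gar1 and -0.21 for Wrap53, while that of Dkc1 was -0.40.

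Adipocyte RNA was raised in 2 of the KI/KI hearts. The 8 adipocyte markers summed to 333 in KI1 and 608 in KI3, against 191 to 208 in WT, and these were the samples in which Gar1, Nop10 and Nhp2 were lowest. In KI2 the sum was 239, but the mean log2 level of the markers was 0.395, the same as in WT2. Of the 8 markers 7 were well above background in each WT heart and 7 or 8 in each KI/KI heart. Of 7 tested in heart, 6 had an unadjusted limma p under 0.05, beside 7.35% of probes, with a median difference of 3.83. None passed after adjustment, and the part of adipocyte RNA in these values was not tested. Leaving out KI1 and KI3 would leave 1 KI/KI heart, so no difference without them is given. The summed level of the skeletal fibre markers also did not overlap in heart, at 66.9 to 166 in WT and 32.4 to 62.1 in KI/KI. Their mean log2 levels did overlap, at -0.89, -1.19 and -0.36 in WT and -1.09, -0.68 and -0.61 in KI/KI. The median difference of the 6 tested was 0.08.

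In brain Tep1 had the widest genotype difference of the set. It was -0.79, -0.71 and -0.76 in WT and -0.43, -0.54 and 0.50 in KI/KI, so the groups did not overlap, as for 7.95% of probes. The difference was 0.60 (SE 0.31, interval -0.15 to 1.34) and was 0.27 without KI3. That KI3 brain had a summed lymphocyte and macrophage marker level of 63.8, against 26.3 to 31.4 in the other 5 brains. Of these 8 markers 5 to 7 were well above background in WT and 6 in KI/KI brains. Cd68, Adgre1, Csf1r and Ptprc were highest in KI3, and Cd3g was well above background in none of the 6 brains. The sum of neuron and glia markers in KI3 was 330 against 374 to 399. Their mean log2 level there, 5.01, lay within the 4.80 to 5.09 of the other brains. The part of this in the Tep1 value was not tested. The vault gene Parp4 differed by 0.61 in brain and did not pass either. Gar1 in brain also did not overlap, at 3.07, 3.08 and 2.96 against 3.12, 3.21 and 3.09, but its difference was 0.10 (SE 0.15, interval -0.27 to 0.47, or 0.06 without KI2 or WT3 and 0.02 after normexp), opposite in sign to that in heart. Whether the genotype difference of Gar1 itself differed between tissues was tested across all 24 arrays, and it did not pass (limma F test).

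In liver only Dkc1 did not overlap, as for 6.24% of probes. It was -0.58, -0.51 and -0.62 in WT and -0.66, -0.84 and -0.78 in KI/KI, a difference of -0.19 (SE 0.17, interval -0.60 to 0.22). In muscle no gene separated the genotypes, beside 6.24% of probes. Tert in muscle was -4.31, -4.42 and -4.62 against -4.43, -3.72 and -3.82 (0.46, SE 0.25, or 0.68 without KI1 and 0.13 after normexp), Tep1 was 2.22, 1.99 and 2.23 against 1.99, 2.03 and 1.71 (-0.24, SE 0.19, or -0.14 without KI3), and Ten1 was 1.40, 1.44 and 1.22 against 1.24, 0.85 and 1.27 (-0.23, SE 0.20, or -0.09 without KI2). Muscle KI1 had a summed neutrophil and marrow marker level of 81.6 against 1.55 to 12.5 in the other muscles, with all 8 markers highest in KI1. In liver KI3 the same sum was 74.2 against 9.26 to 19.7, carried by Lcn2 (log2 level 6.08), while the other 7 markers were highest in other livers. The adipocyte sum in muscle ran from 165 to 912 in WT and from 435 to 1307 in KI/KI. The red cell sum of 5 markers did not overlap in muscle, at 111 to 190 in WT and 229 to 336 in KI/KI, and all 3 markers tested had an unadjusted p under 0.05. Of 11 cycling-cell markers tested in muscle 4 had an unadjusted p under 0.05, with a median difference of 0.50, and of 13 in liver 5 had one, with a median of 0.46, and none passed after adjustment. The part of any of these in the muscle and liver values was not tested. With 3 mice against 3 the exact two-sided permutation test cannot give less than 0.1, the value it gave for each of the 5 cases without overlap.

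Averaged over the 4 tissues of each mouse, Dkc1 was -0.61, -0.74 and -0.73 in WT and -0.76, -0.84 and -0.98 in KI/KI. All KI/KI mice lay below all WT mice, as for 11.9% of probes in either direction, with a difference of -0.17 (SE 0.11, interval -0.44 to 0.10, limma adjusted p = 0.891), or -0.11 without KI3. None of the 10 genes passed at an unadjusted p of 0.05, where 5% of 34421 probes did, nor after adjustment, where 0% did. The interaction of genotype and tissue was called for none of the 10, unadjusted (2.91% of probes) or adjusted (0%), and its smallest p was 0.15, for Tep1. Of the accompanying lists no gene passed the adjusted test for genotype, and the unadjusted one was passed by Pot1b and Exosc10 in heart and Dna2 in muscle.

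**Figure D3:**
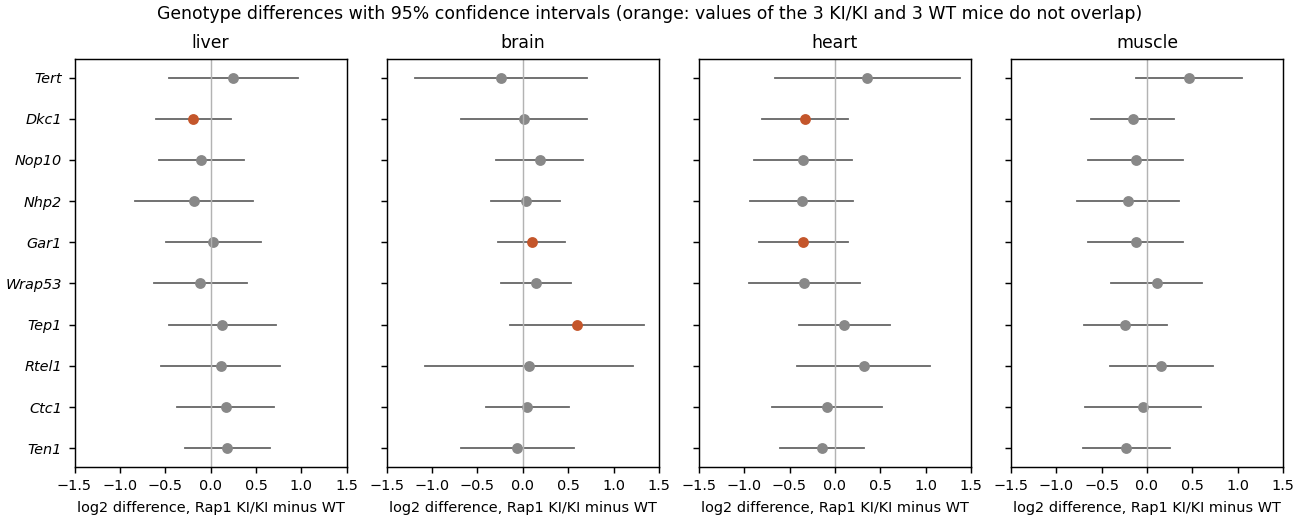
KI/KI minus WT for the 10 genes in each tissue. Points are log2 differences of 3 mice against 3 with 95% confidence intervals, and orange points are genes whose groups did not overlap. Every interval includes 0, and the heart points of Dkc1, Nop10, Nhp2, Gar1 and Wrap53 lie left of it.

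Samples that were high for one of the 3 smaller H/ACA genes within a group tended to be high for the others. After taking away the mean of each tissue and genotype group, the correlation over the 24 arrays was 0.909 for Nhp2 and Gar1, 0.788 for Nop10 and Nhp2, and 0.763 for Nop10 and Gar1, while the 45 pairs of the 10 genes ranged from -0.732 to 0.909 with a median of 0.270. Nhp2 and Wrap53 correlated at 0.768, as closely as Nop10 and Gar1, whereas Dkc1, the remaining H/ACA gene, correlated at 0.409 with Nop10, 0.172 with Nhp2 and 0.038 with Gar1. Mouse KI3 lay below its group mean for Nop10, Nhp2 and Gar1 in every tissue, from -0.36 (Nhp2 in muscle) to -0.05 (Gar1 in brain). The arrays share their scaling by the 75th percentile and come from 6 mice, so these correlations are a description. After quantile normalization the 3 correlations ranged from 0.356 to 0.829. On the levels themselves, where tissue dominates, Nop10 and Tep1 correlated at 0.893, Ctc1 and Ten1 at 0.816, and Tert and Ten1 at -0.896.

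**Figure D4:**
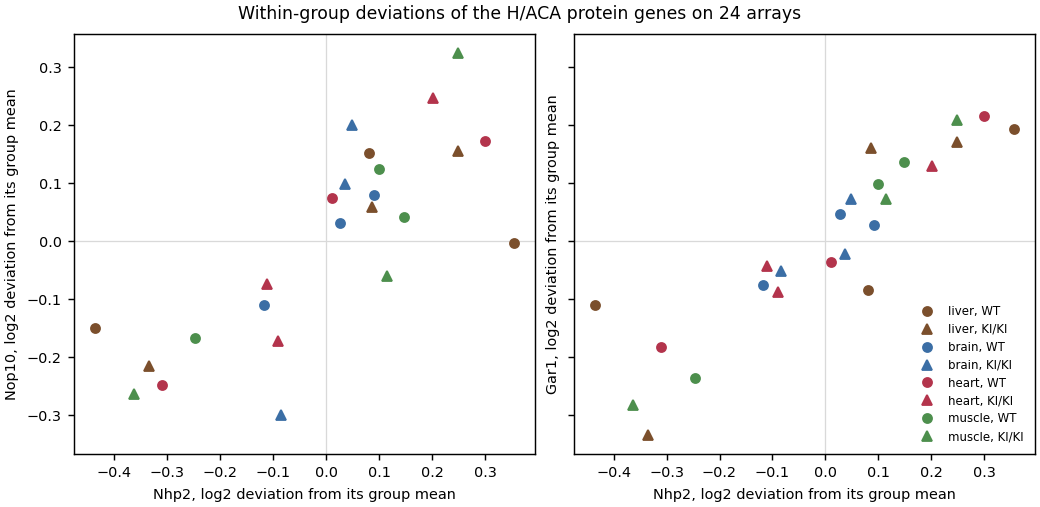
Deviation of Nop10 and of Gar1 from its group mean against that of Nhp2 on the 24 arrays, in log2 units, with the colour giving the tissue and the marker the genotype. The points run from lower left to upper right, with correlations of 0.788 and 0.909, and the brain points spread least for Nhp2 and Gar1 but reach -0.30 for Nop10 in KI3, the lowest Nop10 value shown.

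The genes whose levels followed each gene best over the 24 arrays were sought among 12692 named genes. For Ten1 these were Epdr1 (Pearson r 0.991), Satb1 (0.990) and Reep1 (0.986), and for Ctc1 Csnk1g1 (0.968), Kri1 (0.966) and Ccdc174 (0.966). Tep1 was closest to Slc39a1 (0.985), Akap13 (0.979) and Plbd1 (0.978), and Tert to Nr1i3 (0.926), Cct6b (0.915) and Tmem35b (0.910). Nop10 followed Stoml2 (0.987), Rpl26 (0.975) and Aven (0.975), and Dkc1 followed Rapsn (0.957), Gm5801 (0.956) and Ndrg2 (0.946). The likeness was lower for Nhp2 with Nsfl1c (0.913), Atf4 (0.904) and Zfp622 (0.903), and for Gar1 with Tubb4b (0.883), Dnajc2 (0.873) and Snx5 (0.861). It was lowest for the pair with flat levels, Rtel1 with Zcchc7 (0.782), Eif2ak4 (0.776) and Ccdc62 (0.772), and Wrap53 with Bad (0.776), Klhdc4 (0.771) and Tmem141 (0.765).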

How the data were processed

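RNA of 24 samples was labelled with Cy3 from 200 ng total RNA and hybridized to 1-colour Agilent mouse arrays designed on mm9. Each deposited scanner file gives an intensity per spot, which the authors had processed in Feature Extraction 12.0.3.1 with background taken off at each spot and no scaling between arrays. The series table the authors deposited holds a score, the z-score of each array's log10 signal rounded to 2 decimals, and was used as an alternative. Groups followed the labels. The precision is limited by the number of arrays, 3 mice a group.

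Control and outlier-flagged spots were left out, spots of a probe averaged, and log2 signals lowered by the array's log2 75th percentile. For genotype a probe had to be well above background on 3 or more of a tissue's 6 arrays, and for tissue differences on 12 of 24 or on 3 of 6 in any tissue. Tests were two-sided and used limma 3.58.1 (R 4.3.3), with Benjamini-Hochberg adjustment over all probes tested and a threshold of 0.05. Each tissue had its own genotype fit, the mean effect was fitted on 6 mouse averages and tissue differences on 24 arrays. No test was given in the sources used here for these arrays. The fits were also run on simulated data with independent noise for each probe and array. The condition set there was that the mean estimate of planted liver minus brain differences lay near their planted size. The simulated data held no deviation shared within an array or a mouse, so they do not show what the genotype fits could detect here. Correlations are Pearson's r.

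Same-numbered samples are tissues of the same mouse. Deviations from the group means correlated between tissues of a mouse at -0.219 to 0.262 (median 0.0473, 36 pairs). The alternatives were quantile normalization, normexp (offset 50), other probe filters, the authors' table, the mouse, slide or age as a block, WT arrays alone and leaving out each mouse. Leaving out 5 arrays with raised marker sums and the slide block for tissue differences were chosen after seeing the data.

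Of the non-control probes, 28331 carried a name of 1 gene and 27350 were unnamed here. All 10 genes were named, with at most 4 genes of each accompanying list, those with the smallest p in the comparison described, and the 3 genes outside the set with the highest correlation. The genes, lists and markers were chosen with earlier results of these data known. Promoters are RefSeq sequences on GRCm38.p6. No genome was used here.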

Additional observations from a re-analysis of the deposited data

How the results depend on the processing

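No genotype difference among the 10 genes was called under any alternative run. Of the tissue results, Ten1 in every pair, Tep1 and Nop10 between brain and each other tissue, Tert between liver and each other tissue, Ctc1 in liver against brain and heart, and Dkc1 in muscle against brain and heart kept their direction and call under all alternatives run. After quantile normalization 8 of the 10 genes differed between brain and heart (4 in the reported fit), Nop10 and Nhp2 in liver against heart turned to -0.11 and -0.029, and Nhp2 in brain against muscle turned to 0.17. The authors' table called 6 genes between heart and muscle (3 reported). In liver against heart (5 reported) 3 were called with WT arrays only, 3 with the 5 arrays of raised marker sums left out, 3 with slide as a block, and 3 to 5 without 1 mouse. In liver against muscle (6 reported) 3 were called with WT arrays only and 3 with slide as a block. Without the 5 arrays, Nop10 and Nhp2 in liver against heart (0.35 and 0.46), Gar1 and Wrap53 in liver against muscle (-0.26 and 0.39) and Ctc1 in brain against heart (0.51) no longer passed. With WT arrays only, Dkc1 in liver against muscle (-0.46, adjusted p = 0.106) and Nhp2 in heart against muscle (-0.71, adjusted p = 0.052) were among those lost, at 3 mice a tissue. The causes were not tested, and some of these fits also had fewer arrays.

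With the mouse as a replicate block the only change of call was Nop10 between heart and muscle (adjusted p = 0.049). Requiring a probe to be well above background on all arrays lowered the number tested and the probes called to 19757 for liver against brain (33454 reported), 17861 for liver against heart (28322), 18612 for liver against muscle (30201), 17344 for brain against heart (28495) and 18193 for brain against muscle (29584). Slide as a block gave 18583 and 17194 for liver against heart and against muscle, and WT arrays only gave 12229 for heart against muscle (18471). The interaction, at 0 probes, had 7 without WT1 and 1 without WT3. Quantile normalization moved the median of all probes by -0.15 in liver against brain and by 0.10 in brain against muscle, and normexp by -0.37, -0.35 and -0.26 in liver, brain and heart against muscle. Other probes of a gene could not be tried, since each had 1. Signal over background limits Tert most.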
